A study of Mus musculus with 9 samples.

Results

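miR-132 and miR-212 are a pair of neuronal miRNAs encoded next to each other in the mouse genome, and their levels were followed in cultured hippocampal neurons under control conditions, after NMDA and after bicuculline. The members were chosen by name, as the miRNAs listed on the array as mmu-miR-132 and mmu-miR-212, which are 2 of the 650 miRNAs that the array carries. Each member has 2 probes, and together they take 40 spots of the 13715 on each array. Both names also have a row in the table of processed values that the authors deposited. All neurons came from newborn C57BL/6 mice without any transgene and were grown for 10 days in culture. Control cultures were left untreated, NMDA cultures received 20 µM NMDA and bicuculline cultures 50 µM bicuculline, and both treatments carry a time of 4 h. The study's array table gives the same concentration as the labels and the range in its methods includes it, while 1 passage of its text names a higher concentration together with glycine. The methods also describe a brief exposure to NMDA followed by washing. Each group had 3 arrays, which the methods describe as independent cell preparations. RNA came from whole cultures, so that a change in the share of cells that carry a miRNA and a change in its level per cell cannot be told apart.

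miRNAs are cut from hairpins in longer primary transcripts and repress mRNAs that pair with their seed, the bases near the 5′ end. miR-132 and miR-212 are processed from a common primary transcript, whose promoter is a known target of the transcription factor CREB. CREB is activated when calcium enters neurons through synaptic NMDA receptors, and miR-132 is known to act on dendrite growth and spine structure. Bicuculline blocks GABA-A receptors and thereby drives bursts of synaptic activity. NMDA added to the bath opens synaptic and extrasynaptic NMDA receptors together, and extrasynaptic receptors are known to oppose CREB activity. The comparison of the treatments thus asks whether this activity-linked pair follows synaptic activity, bath NMDA or both.

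The mature sequences are shown because the pair shares its seed. They were taken from RefSeq (GRCm38.p6, chromosome 11, plus strand), where both names matched. Each is written 5′ to 3′ with the seed, bases 2 to 8, in capitals.
mmu-miR-132-3p, chr11:75173723-75173744: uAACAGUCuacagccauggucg
mmu-miR-212-3p, chr11:75173443-75173464: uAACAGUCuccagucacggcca
mmu-miR-132-5p, chr11:75173686-75173707: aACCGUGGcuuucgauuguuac
mmu-miR-212-5p, chr11:75173403-75173425: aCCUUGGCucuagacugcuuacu

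The 3p strands are identical at 17 of 22 positions, including the first 9. Counted from 1 at the 5′ end, with the base of miR-132-3p first, they differ by A10C, C14U, U17C, U20C and G22A. Both seeds read AACAGUC, which pairs with the site GACUGUU in a target mRNA. Of the 1679 mature names in the RefSeq table, 2 had this seed, and these were the 3p strands of miR-132 and miR-212. The 5p strands have different seeds. The array names carry no strand suffix. The sources for the strand differ: in the miRNA catalogue of that period the plain names stood for the 3p strands, whereas the identifiers that the study lists beside these names appear to be those of the 5p strands. Probe sequences were not used here, so which strand the values below measure is not known, and the shared seed bears on them only if it is the 3p strand. Binding of one member to the probes of the other was not tested.

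The hairpins are shown because they place both members on 1 stretch of DNA. They are written 5′ to 3′ with the 3p strand in capitals, and 203 bases lie between them, with miR-212 upstream.
Mir212 hairpin, chr11:75173388-75173478: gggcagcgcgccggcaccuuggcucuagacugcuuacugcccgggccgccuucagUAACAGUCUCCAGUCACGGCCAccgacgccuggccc
Mir132 hairpin, chr11:75173682-75173747: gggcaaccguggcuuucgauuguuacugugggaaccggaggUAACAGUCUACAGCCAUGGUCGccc

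Signals are given as a percentage of the array scale, the 75th percentile of the 265 probes that each of the 9 arrays read as well above background. The scale lay between 416.3 and 645.3 scanner units. Between 162 and 221 miRNAs were well above background per array, and the mean of the negative control spots lay between -0.35% and 0.95% of the scale. The arrays lay on 2 slides with separate scan times, and every group had arrays on both. All 6 miRNAs listed as neuronal markers, among them miR-124 and miR-9, were well above background on all 9 arrays, and their summed signal was 3587% to 3642% of the scale in control, 3333% to 3591% after NMDA and 3281% to 3564% after bicuculline. Of 14 miRNAs listed for glia, blood, vessels and other tissues, 9 were well above background on no array, including the microglia and blood cell miRNAs miR-223, miR-142-3p and miR-142-5p. Well above background on all 9 arrays were miR-21, listed for glia, miR-338-3p, listed for oligodendrocytes, and miR-1, listed for muscle. The other miRNA listed for oligodendrocytes, miR-219, was so on no array. The glial miR-146a was so on 8 arrays and the endothelial miR-126-3p on 5. The summed signal of the 14 was 255% to 309% in control, 260% to 283% after NMDA and 265% to 294% after bicuculline, and most of it was miR-21.

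After bicuculline, miR-212 rose about 4-fold and was the miRNA with the largest increase of all those tested, and miR-132 was next in rank. On its brightest probe miR-212 gave 7.59%, 19.6% and 14.9% of the scale on control arrays 1, 2 and 3. It gave 48.5%, 48.9% and 60.3% on bicuculline arrays 1, 2 and 3. Every bicuculline array lay far above every control array, and control array 1, where the probe was not well above background, was the lowest of all 9. The log2 fold change was 1.98 with a standard error of 0.29 and a 95% interval of 1.31 to 2.66 (limma adjusted p = 0.023 over 161 miRNAs, n = 3 arrays per group). As a fold this is 3.96, with an interval of 2.48 to 6.32, in which control array 1 stands at the floor of 7.94% of the scale and not at a measured level. Without that array the log2 fold change was 1.62. limma called 0.621% of the miRNAs tested higher, which is miR-212 alone, and 0 lower (0 at an unadjusted p under 0.05). Only 2 of 3 control arrays read miR-212 as well above background, so that it entered the test only through the group where it is high. Without the filter its limma adjusted p was 0.478, and a filter on all 9 arrays removes it.

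miR-132, the brighter member, gave 107.8%, 154.8% and 136.7% on control arrays 1, 2 and 3. It gave 190.5%, 182.7% and 248.6% on the bicuculline arrays. The groups did not overlap. Bicuculline array 3 was the highest for both members on this scale, but it has the lowest array scale and in scanner units it was the lowest bicuculline array for both. Without scaling, miR-212 was higher after bicuculline by 1.86 on the log2 scale and miR-132 by 0.49 (limma adjusted p = 0.778 for miR-132). With scaling, the log2 fold change of miR-132 was 0.64 with a standard error of 0.17 and a 95% interval of 0.26 to 1.02. This is a 1.56-fold higher level (limma unadjusted p = 0.0048, adjusted p = 0.386). The change of miR-132 thus did not pass the threshold over all miRNAs tested. Over the 161 miRNAs, 1.24% had an unadjusted p under 0.05 with a higher level, and 1.24% had no overlap between the groups with bicuculline higher. In both cases these were the 2 members. No overlap with bicuculline lower was seen for 1.86%. Next in rank was miR-543, at 0.26 on the log2 scale (limma adjusted p = 0.999, standard error 0.12), whereas the median over all miRNAs tested was -0.02.

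**Figure D1:**
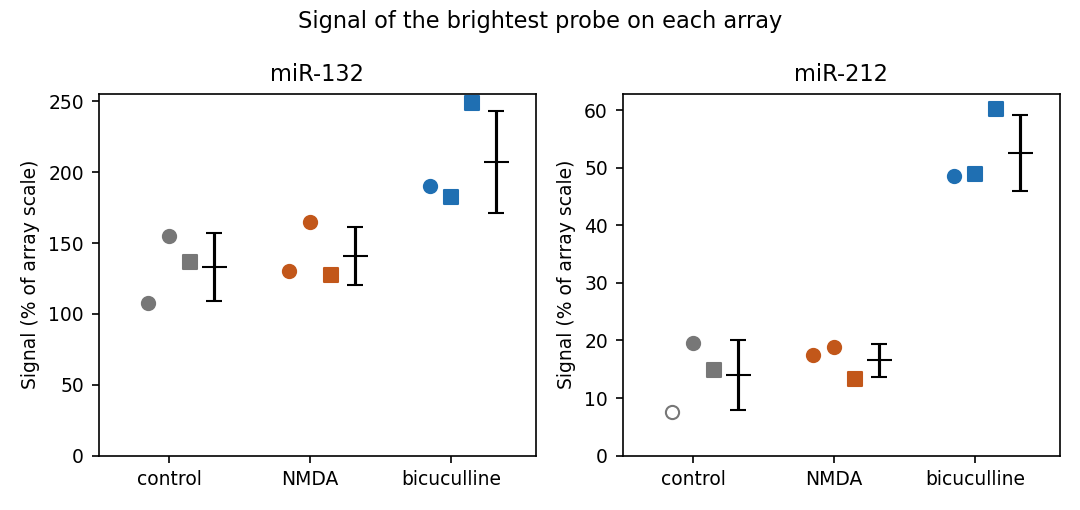
Signal of the brightest probe of miR-132 (left) and miR-212 (right) in percent of the array scale for each of the 9 arrays, by group. Circles are arrays of slide 1 and squares arrays of slide 2, the open circle marks a probe not well above background, and the bars show mean and SD (n = 3). For both miRNAs the bicuculline arrays sit above all other arrays, while control and NMDA arrays overlap.

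The call of miR-212 after bicuculline rested on the setting. The limma adjusted p was 0.060 without bicuculline replicate 1 and 0.099 without bicuculline replicate 2, and it was also over the threshold with quantile normalization, the total gene signal, normexp, no filter or the methods' t-test. When single arrays were left out, its log2 fold change ranged from 1.62 to 2.27.

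Within slides the changes had the same direction. For miR-212, bicuculline minus control was 1.96 on slide 1 (1 array against 2) and 1.87 on slide 2 (2 arrays against 1) on the log2 scale. For miR-132 the values were 0.56 and 0.64. Between arrays of the same replicate number the change of miR-212 was 2.61, 1.32 and 2.02 for numbers 1, 2 and 3, and that of miR-132 was 0.82, 0.24 and 0.86. Number 2 had the smallest change for both members, and its control array was the brightest of the controls for both. That control array lay on slide 1 and bicuculline array 2 on slide 2, whereas the arrays of numbers 1 and 3 shared a slide.

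After NMDA neither member passed the test against control, and the arrays of the groups overlapped for both. miR-212 gave 17.5%, 18.9% and 13.3% of the scale on NMDA arrays 1, 2 and 3, all within the range of the control arrays. Its mean was 16.5% ± 2.89 after NMDA against 14.0% ± 6.03 in control (SD, n = 3 each). The log2 difference was 0.31 with a standard error of 0.31 and a 95% interval of -0.42 to 1.04 (limma adjusted p = 0.991 over 181 miRNAs). Without control replicate 1 it was -0.059, and within slides it was 0.54 on slide 1, which holds that array, and -0.16 on slide 2. Between NMDA and control arrays of the same replicate number, miR-212 differed by 1.14, -0.053 and -0.16 for numbers 1, 2 and 3, and the first of these rests on the floor.

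miR-132 gave 130.3%, 164.7% and 127.8% on the NMDA arrays, within or just above the range of the control arrays. Its mean was 140.9% ± 20.6 after NMDA against 133.1% ± 23.7 in control (SD, n = 3 each). The log2 difference was 0.09 with a standard error of 0.16 and a 95% interval of -0.28 to 0.46 (limma adjusted p = 0.991). It was 0.18 within slide 1 and -0.10 within slide 2, -0.055 without control replicate 1 and -0.029 without NMDA replicate 2. For numbers 1, 2 and 3 the differences between arrays of the same number were 0.27, 0.090 and -0.097. In this comparison 8.29% of the 181 miRNAs were called higher and 0% lower with limma (3 lower at an unadjusted p under 0.05), and neither member was among those called. At an unadjusted p under 0.05, 9.39% were higher and 1.66% lower, and groups without overlap were seen for 9.39% (higher) and 5.52% (lower), again without the members. The intervals leave room for an NMDA change of up to 1.37-fold for miR-132 and 2.06-fold for miR-212, and for a fall to 0.823 and 0.746 of the control level.

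**Figure D2:**
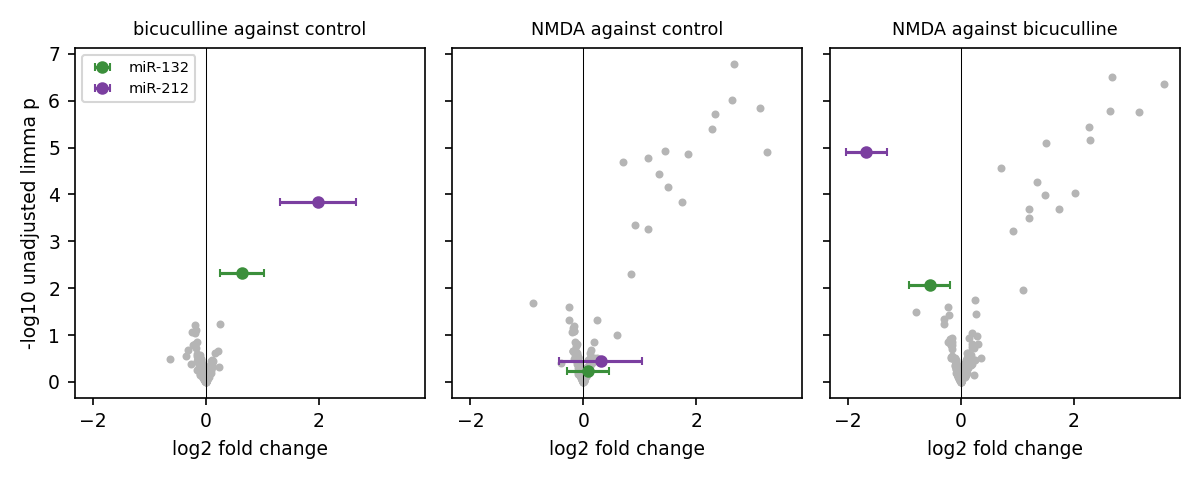
Log2 fold change on the horizontal axis and -log10 of the unadjusted limma p (vertical axis) of every miRNA tested, for bicuculline against control (161 miRNAs), NMDA against control (181) and NMDA against bicuculline (181). Coloured points are miR-132 and miR-212 with their 95% intervals and grey points are all other miRNAs. The members stand apart to the right in the first panel, lie among the bulk in the second and lie to the left in the third.

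Set directly against each other, the treatments differed for miR-212, whereas the difference of miR-132 did not pass the threshold. miR-212 was lower after NMDA than after bicuculline by 1.68 on the log2 scale (NMDA minus bicuculline -1.68, standard error 0.16, 95% interval -2.04 to -1.31, limma adjusted p = 2.7e-04 over 181 miRNAs). This is a level 3.19-fold higher after bicuculline. limma called 0.552% of the miRNAs lower after NMDA, which is miR-212 alone, and 8.29% higher. At an unadjusted p under 0.05, 3.31% were lower, including both members, and 9.94% higher. The difference was -1.42 within slide 1 and -2.03 within slide 2, and when single arrays were left out it ranged from -1.78 to -1.53, with limma adjusted p-values of at most 0.0021. Without a filter the limma adjusted p was 0.052, and in the authors' table the difference was -0.87.

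For miR-132, NMDA minus bicuculline was -0.55 on the log2 scale (standard error 0.15, 95% interval -0.92 to -0.19, limma adjusted p = 0.093). All 3 NMDA arrays lay below all 3 bicuculline arrays, as they did for 2.21% of the miRNAs tested, while 11% had the reverse. The difference did not pass the threshold over all miRNAs, but this turned with the scaling. The limma adjusted p was 0.0012 with scaling to all probes, 0.044 with quantile normalization and 0.040 with normexp. These settings also called more miRNAs lower after NMDA. Scaling to all probes called 143 of the 181 miRNAs, 127 of them lower, and the median of all miRNAs was -0.47. Quantile normalization called 13 lower and normexp 11. The difference was -0.38 within slide 1 and -0.74 within slide 2. The bicuculline arrays serve in both this comparison and the one with control, and the control arrays in both comparisons with control, so the comparisons are not independent of each other.

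In order of level, both members were lowest in control neurons, slightly higher after NMDA and highest after bicuculline. Control and NMDA, neighbours in this order, did not differ beyond their spread for either member. NMDA and bicuculline arrays did not overlap for either member on its brightest probe, and the difference passed the threshold over all miRNAs for miR-212.

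The bicuculline change of miR-212 was larger in value than that of miR-132. To compare the 2 changes, the log2 level of miR-212 minus that of miR-132 was taken on each array and set to a mean of 0 over the control arrays. It was -0.45, 0.33 and 0.11 on control arrays 1, 2 and 3, the first with miR-212 set to the floor, 0.42, 0.19 and 0.05 on the NMDA arrays, and 1.34, 1.42 and 1.27 on the bicuculline arrays. The bicuculline arrays lay close together and above all others, whereas NMDA and control arrays overlapped. Bicuculline against control gave a difference between the changes of 1.34 (exact permutation test, two-sided, p = 0.1), and with 3 arrays in each group no smaller p can be reached. NMDA against control gave 0.22 (exact permutation test, p = 0.5). In the authors' table the bicuculline difference was smaller, at 0.43.

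The probes of a member gave similar changes. On signals without a floor, bicuculline minus control was 0.64 for probe A_54_P1054 and 0.63 for probe A_54_P1055 of miR-132. It was 2.25 for probe A_54_P2616 and 2.01 for probe A_54_P2617 of miR-212. Control and bicuculline arrays did not overlap on any of the 4 probes. On probe A_54_P1055 the gap was narrow, with control array 2 at 92.2% of the scale and bicuculline array 2 at 92.6%. On their brightest probes, 1.24% of the 161 miRNAs tested had no overlap with bicuculline higher. The share over all probes was not taken. NMDA and bicuculline arrays overlapped on probe A_54_P1055, whose spots are described below, and on no other. NMDA minus control was 0.09, 0.19, 0.42 and 0.33 in the same order, with standard errors of 0.19, 0.26, 0.47 and 0.43. Without control array 1 the values for miR-212 were -0.0092 and -0.059. The dimmer probe of miR-212 gave 4.21% of the scale on control array 1, 11.9% on control array 2 and 8.95% on control array 3, so that both of its probes placed control array 1 lowest. On that array 0% and 10.0% of their unflagged spots were marked well above background.

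**Figure D3:**
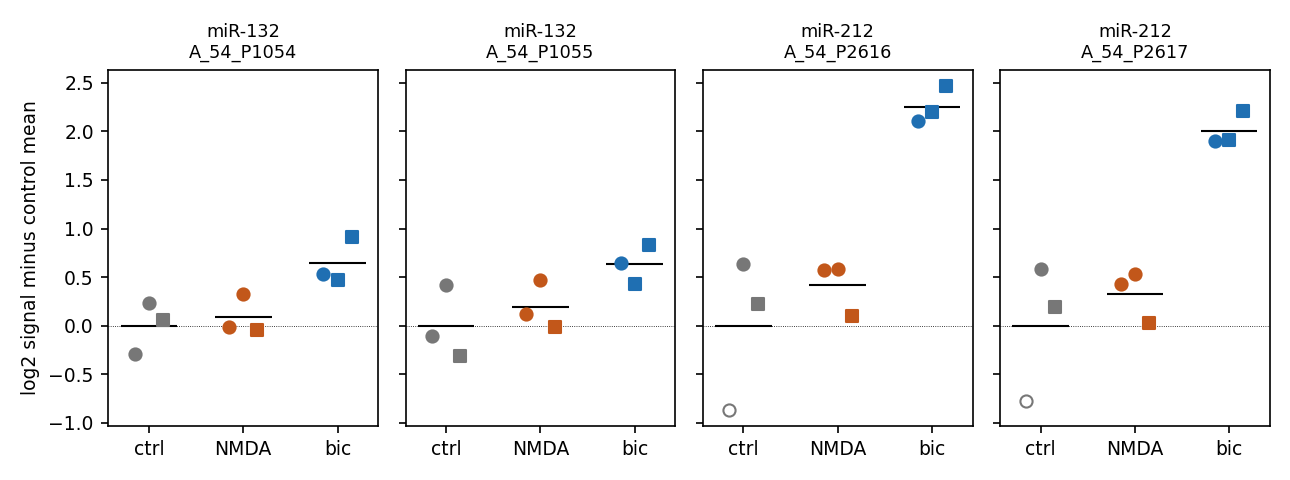
Log2 signal of each of the 4 probes on each array, without a floor, minus the mean of the control arrays for that probe (lines are group means, n = 3; circles slide 1, squares slide 2, open symbols not well above background). The bicuculline means stand at 0.64 and 0.63 for the miR-132 probes and at 2.25 and 2.01 for the miR-212 probes.

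The spread between the spots of a probe was smaller than the spread between cultures for most values. On the brightest probes the SD over the spots of an array was 4.34% to 10.3% of the mean for miR-132 and 5.48% to 10.6% for miR-212. The SD over the 3 control arrays was 17.8% of the mean for miR-132 and 43.1% for miR-212. After bicuculline the latter was 12.7%.

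Probe A_54_P1055 of miR-132 held an exception tied to the position of its spots. Of its 10 spots, 4 lie in the first 10 of the 192 rows of the array. On control array 3 the mean of these 4 was 62.0% of that of the other spots, and on bicuculline array 2 it was 67.3%. On the other 7 arrays it was between 94.9% and 102%. None of these dim spots was flagged by the scanner software. With the first 10 rows left out, a setting added after seeing the data, bicuculline minus control for this probe was 0.62 in place of 0.63. For the brightest probe, which has 1 spot there, miR-132 was at 0.62 (limma adjusted p = 0.505). On probe A_54_P1055 with all rows, NMDA array 2 lay above bicuculline array 2, at 95.5% against 92.6% of the scale. Without the first 10 rows they were at 95.4% and 103.7%, and the NMDA and bicuculline arrays no longer overlapped on this probe. No probe of miR-212 has spots in these rows.

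**Figure D4:**
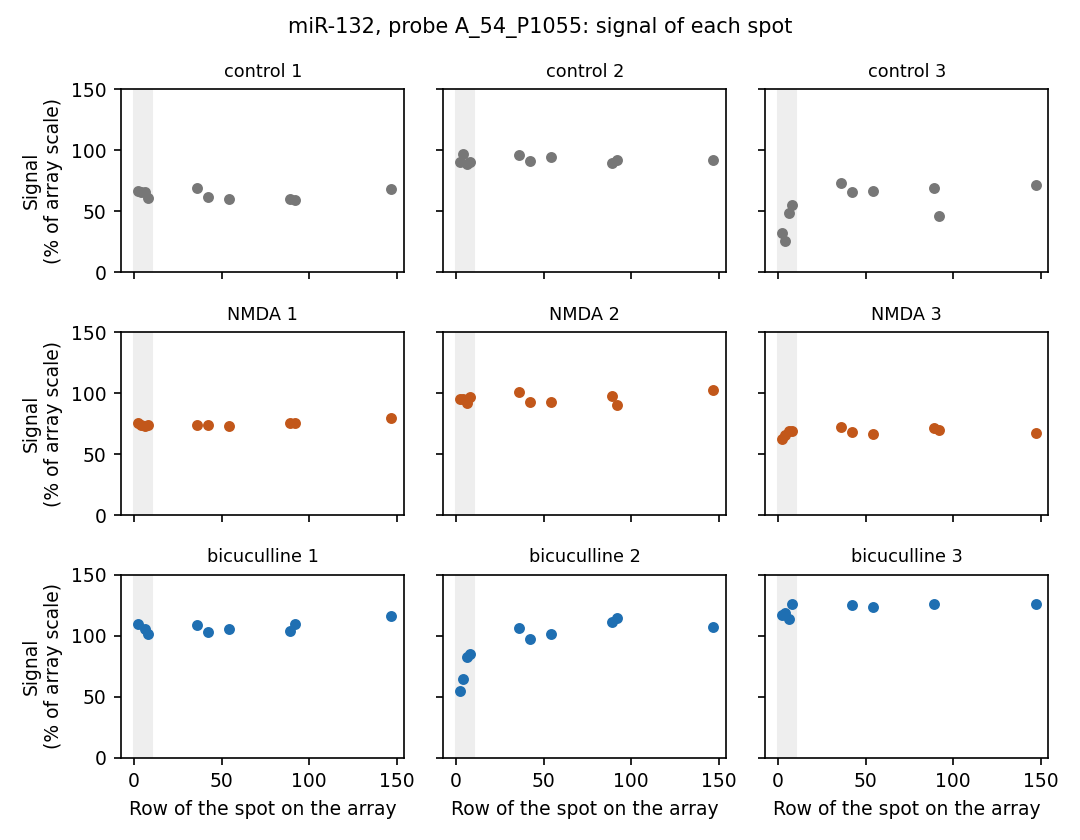
Signal of each unflagged spot of the miR-132 probe A_54_P1055 in percent of the array scale against the row of the spot, for each of the 9 arrays. The grey band marks the first 10 rows, in which spots of control array 3 and bicuculline array 2 lie below most of the others.

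In the table of log2 values that the authors deposited, the same order appeared with smaller steps. miR-212 stood at 7.65 ± 0.18 in control, 7.67 ± 0.07 after NMDA and 8.54 ± 0.13 after bicuculline (SD, n = 3 each). miR-132 stood at 9.30 ± 0.18, 9.38 ± 0.16 and 9.76 ± 0.14. The bicuculline difference of miR-212 was thus 0.90 in that table (limma adjusted p = 0.0054, fitted to the same 161 miRNAs, against a range of 7.5e-16 to 0.998 over all alternatives), and that of miR-132 was 0.47 (adjusted p = 0.187, with a range of 0.029 to 0.998). The 7.5e-16 came from scaling to all probes, where limma gave both members the same standard error of 0.231. The lowest values in that table were 6.80 to 6.85 per array and the medians 7.06 to 7.08, so the control values of miR-212 stood near the low end of that scale.

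Of 156 miRNAs that all 9 arrays read as well above background, miR-132 was the one whose levels followed those of miR-212 most closely, with a Pearson correlation of 0.94 over the 9 arrays. That value includes the higher bicuculline levels of both members. With the group means removed the correlation was 0.85, which was not computed for other pairs of miRNAs. Control array 1, with miR-212 at the floor, was the lowest for both members. Bicuculline array 3, which has the lowest array scale, was the highest for both. Next for miR-212 were miR-543 (0.78) and miR-129-5p (0.75). For miR-132, of the other 155, the closest were miR-543 (0.82), miR-129-5p (0.80) and miR-431 (0.68). The 9 arrays share groups and slides, and these correlations are descriptions.

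Levels of other miRNAs linked to synaptic plasticity give the surroundings of the pair. Of 21 such miRNAs, among them miR-134, which acts on the spine kinase Limk1, miR-138, which acts on spine size, and miR-124, an abundant miRNA of neurons, 18 could be tested. After bicuculline limma called 0 of the 18 in either direction (0 at an unadjusted p under 0.05), where 0.621% of all miRNAs tested were called higher and 0% lower, so the count says little about the list. Their median log2 fold change was -0.03 against -0.02 over all miRNAs tested, and they lay between -0.23 for miR-9 and 0.23 for miR-188-5p. After NMDA limma called 0 of the 18 (0 at an unadjusted p under 0.05), where 8.29% of all were called higher, with a median of -0.0012 against -0.01 over all. The highest was miR-188-5p at 0.59. Between NMDA and bicuculline limma called 0 of the 18, where 8.29% of all were called higher and 0.552% lower, with 1 higher after NMDA at an unadjusted p under 0.05. miR-134 itself was well above background on 1 of 9 arrays and was not tested.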

How the data were processed

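RNA from 9 cultures, isolated as total RNA, was hybridized to one-colour Agilent miRNA arrays. The authors deposited the scanner output, with a spot intensity that was detrended and corrected for background by Agilent Feature Extraction (10.7.1.1 on one slide, 10.7.3.1 on the other), and a table of log2 values whose processing is not given in the sources used here. Here 3278 flagged spots were left out, spots were averaged per probe, signals were divided by the array scale and set to a floor of 7.94% of it before taking log2, and the brightest probe stood for each miRNA. A probe counted as well above background if 50% or more of its spots did. limma 3.58.1 (R 4.3.3) used the 2 groups of a comparison and no covariate, over miRNAs that every array of 1 or both groups read as well above background, two-sided, with Benjamini-Hochberg adjustment and a threshold of 0.05. Precision is limited by the number of arrays. The limma fit was first tested on simulated data.

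The members, lists and tests were chosen with earlier results of these data known. Named miRNAs are the members, those sharing their seed, plasticity miRNAs called or at the ends of their range, the 3 closest in pattern, and the next in rank. miR-134, miR-138 and miR-124 were added to explain the list. From the list of other cell types, miR-223, miR-142-3p, miR-142-5p, miR-21, miR-338-3p, miR-219, miR-1, miR-146a and miR-126-3p were added after their values were seen. For NMDA and control, deviations from the group means correlated at 0.36, 0.76 and 0.63 over 156 miRNAs between arrays of the same number. The numbers were read as pairs there, although the fits shown are those without the block. Each of these pairs lay on the same slide, so a shared culture and a shared slide cannot be told apart. For bicuculline and control the correlations were 0.59, 0.08 and 0.72, and for NMDA and bicuculline 0.62, -0.03 and 0.72. In these 2 comparisons the numbers were not read as pairs. The arrays of number 2 lay on different slides in both, so these values cannot show whether the numbers pair cultures. Alternatives were other scalings, normexp on the median signal, summaries, floors, filters, fits, blocks and tests, the authors' table, and leaving out each array.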

Additional observations from a re-analysis of the deposited data

How the results depend on the processing

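Leaving out the spots of the first 10 rows was chosen after seeing the data. The cause was not tested for any change listed here. For bicuculline against control, 0 miRNAs were called in place of 1 with quantile normalization, the total gene signal, normexp, no filter, the methods' t-test, or only miRNAs well above background on all 9 arrays, a filter that removes miR-212. miR-212 then stood at 1.97, 2.09, 1.25, 1.98 and 1.98 on the log2 scale in the order of the first 5. With a replicate block 2 were called, since miR-132 passed at 0.64 (limma adjusted p = 0.029). The replicate numbers were not read as pairs in this comparison. Deviations of number 2 correlated at only 0.08, but its arrays lay on different slides, so whether the numbers pair cultures is not known. The block changed no other call of a member. When single arrays were left out, between 0 and 1 miRNAs were called, miR-212 lay between 1.62 and 2.27 and miR-132 between 0.50 and 0.76.

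For NMDA against control, where 15 were called, limma called 26 with quantile normalization (13 higher and 13 lower), 27 with normexp (14 and 13), 5 with the total gene signal, 5 without a filter and 3 among miRNAs well above background on all 9 arrays. Scaling to all probes put miR-132 at -0.33 and miR-212 at -0.093, where the median of all miRNAs was -0.43. With arrays left out 15 to 17 were called, miR-132 lay between -0.055 and 0.21 and miR-212 between -0.059 and 0.59. The change of miR-212 minus that of miR-132 was -0.053 in the authors' table and -0.026 with normexp, and -0.0033 to 0.39 with arrays left out.

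For NMDA against bicuculline, where 16 were called, there were 143 with scaling to all probes (16 higher and 127 lower, with the median of all miRNAs at -0.47), 27 with quantile normalization (14 and 13), 26 with normexp (15 and 11), 8 with the total gene signal, 8 without a filter, 10 with the methods' t-test and 3 with the filter on all 9 arrays. miR-132 passed the threshold with scaling to all probes (-1.03), quantile normalization (-0.55) and normexp (-0.51). miR-212 stayed at -1.68 without a filter but missed the threshold (limma adjusted p = 0.052). With arrays left out 15 to 17 were called, miR-132 lay between -0.67 and -0.41 and miR-212 between -1.78 and -1.53. A low signal limits the control level of miR-212, which on control replicate 1 was below the floor.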

Other observations

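The fall of signal toward the first 10 rows was not particular to the miR-132 probe. Over probes whose spots in the other rows gave more than 150 scanner units, the median ratio of the spots in these rows to the others was 84.8% on control replicate 3 (52 probes) and 83.4% on bicuculline replicate 2 (50 probes), both on slide 2, against 94.9% to 101% on the other 7 arrays.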
